A study of Mus musculus with 2 samples.

Results

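Levels of 7 transcription factor genes were measured in cells of mouse visceral adipose tissue (VAT): the nuclear receptors Nr4a1, Nr4a2 and Nr4a3, and the zinc finger factors Klf2, Klf4, Klf6 and Klf13. They were chosen by name, and all 7 were found among the 27998 gene rows of both count matrices. The other 17 genes of the Sp and KLF family in the files were read as a related list. CR denotes the library from calorically restricted mice and obese the library from mice harvested at the end of the diet period with free access to food. C57BL/6J males bought at 6 weeks of age were acclimated for 2 weeks in the study's methods. Both groups were then kept for 24 weeks on high-fat food (fat giving 60% of kcal, cholesterol at 0.3%). Each week they were also injected with 5 mg/kg of an antisense oligonucleotide that silences the LDL receptor and so raises blood lipids. The CR mice were next given 70% of their ad libitum intake of the same diet for 2 weeks, whereas the deposited diet label of that library calls the restriction life-long. By those methods the CR mice were also 2 weeks older and 2 weeks longer on the diet at harvest, which cannot be told apart from the restriction. Live CD45+ cells of perigonadal VAT were sorted and captured with the 3′ chemistry, version 2. There was 1 library per group, the number of mice behind each is not given in the sources used here, and each difference between the groups therefore has no replicate check. A lean library was not analysed here.

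NR4A proteins are orphan nuclear receptors whose activity follows their abundance rather than a ligand, and they are transcribed within minutes of a signal as immediate early genes. In mice, NR4A1 is needed for patrolling monocytes, the Ly6C-low cells that crawl along vessel walls. NR4A factors also rise after antigen receptor signals and restrain effector T cells. KLF factors bind GC-rich and CACCC elements. KLF2 keeps lymphocytes quiescent and sustains S1pr1, the receptor for tissue exit, and together with KLF4 it carries the response of endothelium to laminar flow. KLF4 is needed for monocyte differentiation in mice. KLF6 takes part in inflammatory transcription in macrophages, and KLF13 drives late Ccl5 expression in T cells. Stress during tissue digestion is known to induce Fos, Jun, heat shock, NR4A and several KLF transcripts, so these genes are given beside the members.

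In the genome build of the files (mm10, GRCm38), Nr4a1 lies at chr15:101254269-101274795 on the plus strand, Nr4a2 at chr2:57106830-57124003 on the minus strand and Nr4a3 at chr4:48045153-48086447 on the plus strand. Klf2 lies at chr8:72319033-72321656 (plus), Klf4 at chr4:55527143-55532466 (minus), Klf6 at chr13:5861482-5870394 (plus) and Klf13 at chr7:63886351-63938915 (minus). The 250 bases before the RefSeq start of each gene (GRCm38.p6) were read for short motifs on both strands, because NR4A genes are textbook targets of CREB, the factor that relays cyclic AMP signals. The core of a cyclic AMP response element, TGACG, had 4 copies in each of the 3 NR4A windows, 1 copy in the windows of Klf2, Klf4 and Klf13, and none in that of Klf6. Of 32841 windows of the same length, 17.8% held at least 1 copy and 45 (0.137%) held 4 or more. The NR4A windows are shown for this shared feature, 5′ to 3′, with TGACG or its reverse complement CGTCA in capitals.
Nr4a1, chr15:101266596-101266845, plus strand: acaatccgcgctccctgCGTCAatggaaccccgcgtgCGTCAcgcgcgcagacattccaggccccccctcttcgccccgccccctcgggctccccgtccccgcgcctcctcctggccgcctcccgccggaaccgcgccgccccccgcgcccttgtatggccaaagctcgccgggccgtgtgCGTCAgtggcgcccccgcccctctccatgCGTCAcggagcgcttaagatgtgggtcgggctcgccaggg
Nr4a2, chr2:57124004-57124253, minus strand: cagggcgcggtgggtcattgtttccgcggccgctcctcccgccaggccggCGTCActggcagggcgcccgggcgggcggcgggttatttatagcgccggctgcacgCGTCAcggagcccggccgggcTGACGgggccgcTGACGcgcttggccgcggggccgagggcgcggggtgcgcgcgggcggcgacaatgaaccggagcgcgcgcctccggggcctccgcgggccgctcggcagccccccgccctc
Nr4a3, chr4:48045055-48045304, plus strand: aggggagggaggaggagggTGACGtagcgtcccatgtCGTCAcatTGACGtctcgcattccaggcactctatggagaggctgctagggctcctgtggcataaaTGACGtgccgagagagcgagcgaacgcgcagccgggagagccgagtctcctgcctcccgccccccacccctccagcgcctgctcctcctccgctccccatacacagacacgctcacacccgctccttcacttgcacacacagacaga
The windows are GC-rich (74.4% in Nr4a1, 80% in Nr4a2 and 63.6% in Nr4a3, against a median of 52.4% over all windows). The full palindrome TGACGTCA (1.55% of windows), the NR4A monomer site AAAGGTCA (1.34%) and the serum response element (1.47%) were in none of the 7 windows. The start used for Nr4a1 lies within the annotated gene, since longer transcripts begin upstream. The windows of Nr4a3, Klf2 and Klf6 also run past the annotated gene starts given above, so part of each lies within the gene.

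Among the KLF windows, a site for MEF2, the factor through which flow and kinase signals are known to reach Klf2, was found in Klf2, starting 118 bases before the transcription start, and 2.92% of all windows held one. The Nr4a2 window held one as well, at 167 bases. The Klf2 and Klf6 windows are printed as a contrast, with the MEF2 site in capitals in Klf2 and CCAAT, the box bound by NF-Y, or its complement ATTGG in Klf6.
Klf2, chr8:72318812-72319061, plus strand: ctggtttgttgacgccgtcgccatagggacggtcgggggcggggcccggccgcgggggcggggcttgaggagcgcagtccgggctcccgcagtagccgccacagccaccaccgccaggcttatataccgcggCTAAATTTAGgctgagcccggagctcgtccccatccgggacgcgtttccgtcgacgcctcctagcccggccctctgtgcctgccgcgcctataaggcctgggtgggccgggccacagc
Klf6, chr13:5861239-5861488, plus strand: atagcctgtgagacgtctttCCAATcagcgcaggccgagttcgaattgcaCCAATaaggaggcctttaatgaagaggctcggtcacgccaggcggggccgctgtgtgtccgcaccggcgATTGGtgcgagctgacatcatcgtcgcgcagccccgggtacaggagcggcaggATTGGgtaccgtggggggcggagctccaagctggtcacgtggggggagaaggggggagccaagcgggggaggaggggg
CCAAT occurred in 33.9% of windows and 4 or more times in 0.840%. Klf6 had 4 copies and Klf13 had 2. The GC box GGGCGG, bound by Sp and KLF proteins, had 4 copies in Klf4 and Nr4a2, 3 in Nr4a1 and Klf13, 2 in Klf2 and 1 each in Nr4a3 and Klf6. Of all windows, 32.7% held one and 4.09% held 4 or more. A match describes letters in a window and is no measurement of binding.

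**Figure D1:**
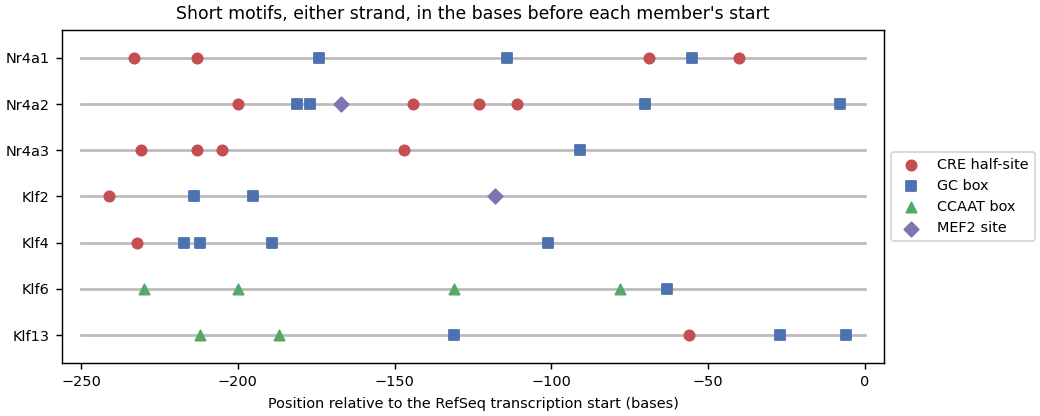
Positions of motif matches in the 250 bases before the start of each of the 7 genes, with distance to the start on the x axis in bases and 1 row per gene. TGACG, drawn as the CRE half-site, has 4 matches in each NR4A row and at most 1 in a KLF row.

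The CR library held 3562 barcodes with a median of 4335 UMIs, and the obese library 5795 with a median of 6379. After filtering, 2987 and 5262 cells were kept, of which 2701 CR and 4488 obese cells fell into a marker-gated class. No deposited annotation was given, so classes rest on fixed marker lists with thresholds set on the counts, and 95 CR and 167 obese cells that met the gates of 2 lineages were set aside. All defining markers were detected in both libraries in the classes described, except Il13 and Il5 in the 16 obese type 2 innate lymphoid cells (ILC2). Patrolling monocytes carried Ace at 294 and 369 CPM (UMIs of a gene per 1000000 UMIs of the class) in CR and obese cells, and C1qa, a macrophage gene, at 192 and 165 CPM. Fcgr4-high macrophages, which share Fcgr4 with patrolling monocytes, carried C1qa at 3282 and 3608 CPM and Ace at 3.23 and 1.484 CPM. The patrolling gate uses Ace and leaves out cells that pass the C1q gate, so this contrast was set in part by the gates. Cd300e, another marker of the patrolling gate, stood at 817 CPM in CR and 819 CPM in obese Fcgr4-high cells with few class II transcripts. Although CD45+ cells were sorted, RNA of Ptprc (CD45) was low in the endothelium and fibroblasts. It stood at 40.1 and 24.9 CPM in the CR library and 74.2 and 43.5 CPM in the obese library, against 580 and 474 CPM in T cells. Surface CD45 protein is not in these data, so whether the sort label holds for endothelium and fibroblasts was not tested. CR cells of other classes carried more fibroblast-marker RNA, for example 308 against 31.7 CPM summed over the list in T cells. At the ratio found in the source cells, carry-over from fibroblasts and endothelium together comes to at most 12.1% of the level of a member in the leukocyte classes of 50 or more cells, the maximum being that of Klf4 in CR B cells (11.1% in CR T cells). The libraries share 28 barcode sequences.

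Nr4a1 was highest in patrolling monocytes in both libraries. CR patrolling monocytes carried 797 CPM (95% Poisson interval 674 to 935, 61 cells) and obese ones 860 CPM (755 to 976, 74 cells). These intervals, like all those below, cover counting error only. With every cell thinned to 1500 UMIs, 67.2% of CR and 66.2% of obese patrolling monocytes had an Nr4a1 UMI, against 1.39% and 5.50% of erythroid cells, which stand for free RNA although most of their UMIs are haemoglobin (median depths before thinning 2788 and 3375.5 UMIs in patrolling monocytes and 7680 and 9125 in erythroid cells). Among classes of 50 or more cells, next in CR came type 2 dendritic cells (cDC2) at 461 CPM, apart from patrolling monocytes above and from classical monocytes at 354 CPM below. In the obese library classical monocytes (377 CPM) and cDC2 (338 CPM) overlapped. NK cells held 266 and 259 CPM in CR and obese VAT, and T cells 169 and 154 CPM. Resident and lipid-associated MØs were at the low end, with 113 and 86.9 CPM in resident MØs and 101 and 75.9 CPM in lipid-associated MØs. Endothelium had 101 CPM in CR VAT, and 2 UMIs in the 16 obese endothelial cells.

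Within each library, patrolling monocytes exceeded classical monocytes in Nr4a1 by 1.16 on the log2 scale in CR (0.86 to 1.46) and by 1.18 in obese VAT (0.95 to 1.40), with 5 CPM added to each side of every ratio. Patrolling monocytes also stood above Fcgr4-high MØs, so that Fcgr4-high over patrolling gave -1.74 in CR and -2.76 in obese cells. In this contrast 22.8% of all measured genes in CR and 21.1% in obese VAT were past 2-fold. Fcgr4-high MØs, whose marker Fcgr4 encodes an IgG receptor, carried 235 CPM of Nr4a1 in CR (220 to 251) and 122 CPM in obese VAT (104 to 143). The intervals do not overlap. Fcgr4-high MØs thinned to equal depth had an Nr4a1 UMI in 26.1% of CR and 15.5% of obese cells.

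Nr4a2 had another order and was highest in NK and T cells, with few UMIs in B cells. NK cells led with 315 CPM in CR (243 to 401) and 216 CPM in obese VAT (176 to 262), followed by T cells with 201 CPM in CR (178 to 227) and 116 CPM in obese VAT (104 to 130). NK and T cell intervals did not overlap in either library. B cells had 5 UMIs among 207 CR cells (7.50 CPM) and 8 among 176 obese cells (9.34 CPM). T over B cells was 4.05 (3.18 to 4.81) in CR and 3.08 (2.35 to 3.76) in obese VAT. Type 1 dendritic cells (cDC1) came after T cells, at 120 and 95.4 CPM, overlapping with classical monocytes (107 CPM) in CR. In patrolling monocytes Nr4a2 stood at 58.8 and 53.8 CPM and in resident MØs at 28.3 and 18.2 CPM. The class that led for Nr4a1 was thus not the one that led for Nr4a2.

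Nr4a3 gave few UMIs in most classes. With migratory dendritic cells included, although only 41 of them were in the CR library, it was highest in these cells, the Ccr7-positive cells that travel to lymph nodes, with 193 CPM in CR cells (147 to 249) and 127 CPM in 62 obese cells (95.5 to 166). NK cells had 63.0 and 30.2 CPM and T cells 52.1 and 14.0 CPM. Classical monocytes held 1 UMI in CR and 8 in obese VAT. In 10 of the 12 classes that held 50 or more CR cells and as many obese cells, Nr4a3 did not reach the minimum of 20 UMIs over both libraries and 50 CPM in one of them. Of these 10 classes, 6 had too few UMIs and 4 had enough UMIs but stayed under 50 CPM. Among the 4, Fcgr4-high MØs held 66 UMIs in CR (17.7 CPM, 13.7 to 22.6) and 4 in obese VAT (2.97 CPM, 0.81 to 7.60), a log2 ratio of 1.51 (0.79 to 2.01), and cDC2 held 39.5 CPM (26.4 to 56.7) and 13.9 CPM (8.58 to 21.2), a log2 ratio of 1.24 (0.53 to 1.91).

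**Figure D2:**
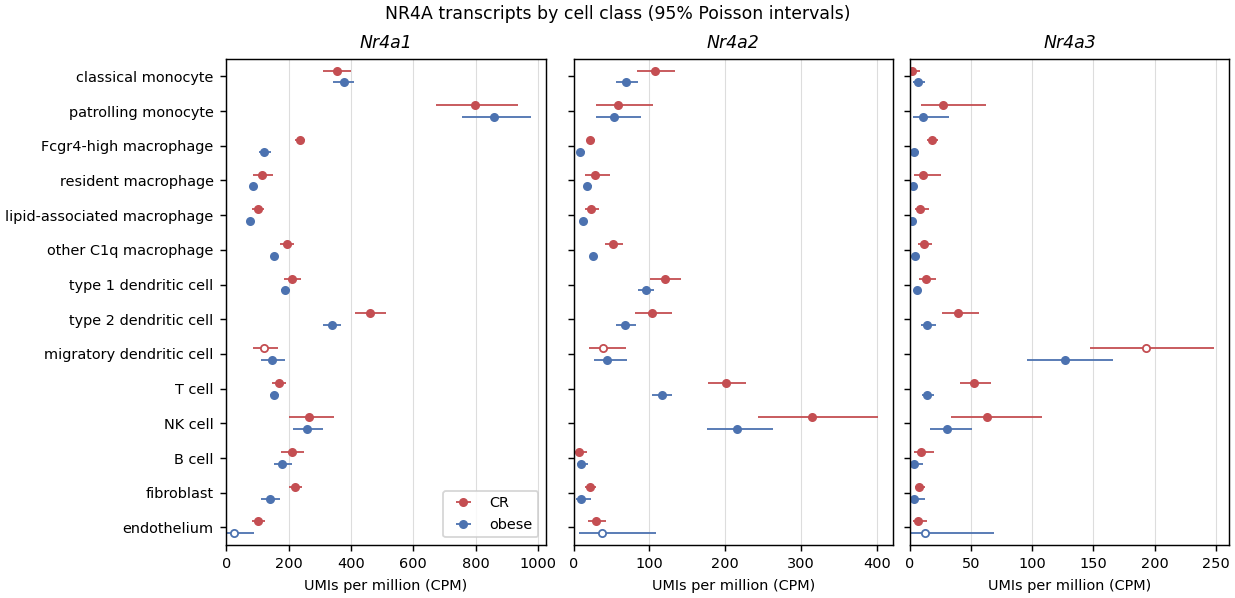
Levels of Nr4a1, Nr4a2 and Nr4a3 in CPM of summed UMIs (x axis) in 14 cell classes (rows), CR (red) above obese (blue), with exact Poisson 95% intervals as bars and open points for classes under 50 cells. Nr4a1 is highest in patrolling monocytes at 797 and 860 CPM, Nr4a2 in NK cells at 315 and 216 CPM, and Nr4a3 in migratory dendritic cells at 193 and 127 CPM.

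Klf2 was detected in every class described. In CR VAT, patrolling monocytes led with 2871 CPM (2634 to 3125), and then came endothelium (2021 CPM), B cells (1778 CPM) and Fcgr4-high MØs (1279 CPM), each apart from the next. In obese VAT, B cells (2020 CPM) and resident MØs (1989 CPM) overlapped at the top, above patrolling monocytes at 1703 CPM (1553 to 1863). T cells carried 846 CPM in CR and 1030 CPM in obese VAT, and NK cells 1070 and 770 CPM. Endothelium is a known site of Klf2 expression. It exceeded fibroblasts by 0.88 on the log2 scale in CR.

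Klf4 was highest in fibroblasts (574 and 509 CPM in CR and obese VAT) and high in CR endothelium (522 CPM), which overlapped with CR fibroblasts. CR patrolling monocytes reached 492 CPM (397 to 603), overlapping with CR endothelium, against 190 CPM (142 to 248) in obese patrolling monocytes. Resident MØs had 216 CPM in CR and 297 CPM in obese VAT. B cells (82.5 and 31.5 CPM) and T cells (94.2 and 47.1 CPM) were lowest among the large classes of lymphocytes.

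Klf6 was led in CR by endothelium (865 CPM), which overlapped with C1q MØs without other markers (778 CPM). In obese VAT the C1q MØs without other markers led (730 CPM) and overlapped with resident MØs (727 CPM). Fcgr4-high MØs were low, with 257 CPM in CR and 317 CPM in obese VAT. Klf13 was highest in patrolling monocytes in both libraries, at 305 CPM in CR and 419 CPM in obese VAT, overlapping with NK cells (291 CPM) in CR and apart from classical monocytes (311 CPM) in obese VAT. Fcgr4-high over patrolling gave -1.40 in CR and -1.45 in obese cells for Klf13. The monocyte and the MØ that share Fcgr4 thus differed in Klf13 by over 2-fold in both libraries. Of all measured genes, 22.8% in CR and 21.1% in obese VAT were past 2-fold in this contrast, so nothing particular to Klf13 is read.

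**Figure D3:**
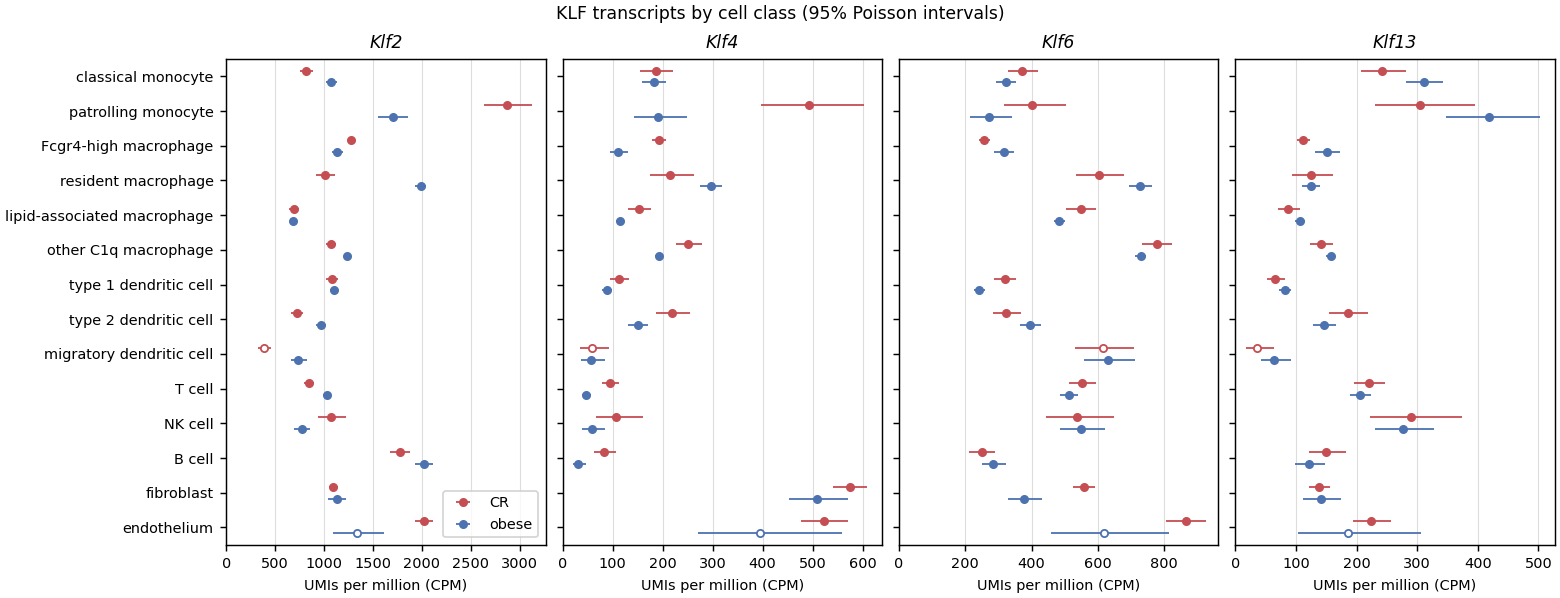
Levels of Klf2, Klf4, Klf6 and Klf13 in CPM of summed UMIs (x axis) in 14 cell classes (rows), CR (red) above obese (blue), with exact Poisson 95% intervals and open points for classes under 50 cells. Klf2 in resident MØs lies at 1012 CPM in CR and 1989 CPM in obese VAT, whereas in patrolling monocytes it lies at 2871 and 1703 CPM.

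To describe how the CR and obese libraries differ, CR was set over obese class by class. A gene counted as different when it passed 2-fold among measured genes, with no test, since 1 library stands on each side. Of 84 pairs of a member and a class, 69 were measured. Of these, 3 were higher in CR and 0 were lower. Over all genes and the same 12 classes, 1.76% of 32996 measured pairs were higher and 1.22% lower. The 3 pairs were Klf4 in patrolling monocytes (log2 1.35, 0.86 to 1.85), Klf4 in B cells (1.26, 0.64 to 1.89) and Nr4a3 in T cells (1.59, 1.10 to 2.06). Klf4 in B cells and Nr4a3 in T cells reached the 50 CPM minimum in CR alone. From 3 pairs nothing is read about the members against that background.

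Smaller differences ran mostly one way for some members. All classes come from the same CR and obese library, so agreement between classes is no replicate check. The median ratio of the immediate early genes ran the same way. It was above 0 in each of these classes, from 0.10 in B cells to 0.56 in patrolling monocytes, except resident MØs (-0.11). Whether the members differ from that run was not tested. Klf4 was above 0 in 11 of its 12 measured classes (10 of 12 with median-of-ratios scaling and 8 of 11 after thinning), and its interval lay above 0 in 8 and below 0 in 1, the resident MØs. Over all genes and the same 12 classes, 17.1% of the measured pairs had an interval above 0 and 11.5% one below 0. Nr4a1 was above 0 in 10 of 12 (9 with median-of-ratios scaling), with 5 intervals above 0 and 0 below. Nr4a2 was above 0 in all 7 classes measured (6 of 7 with looser gates), with 6 intervals above 0. With the minimum not applied it was above 0 in 11 of 12 classes, all but B cells, with 8 intervals above 0. Nr4a3, also with the minimum not applied, was above 0 in 11 of 12 classes, all but classical monocytes, with 7 intervals above 0. For Nr4a2, lymphocyte examples are T cells (0.77, 0.53 to 1.00) and NK cells (0.53, 0.07 to 0.99), and among MØs the C1q MØs without other markers gave 0.92 (0.58 to 1.25). These MØs reached the 50 CPM minimum in CR alone (52.3 against 25.3 CPM). Klf2 went both ways, with 3 intervals above and 6 below 0. Klf6 had 5 above and 3 below, and Klf13 1 above and 2 below. The median ratio of all genes lay between -0.03 and 0.14 in these classes. With median-of-ratios scaling, 68 of 69 member ratios stayed within their intervals and 4 had another sign.

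**Figure D4:**
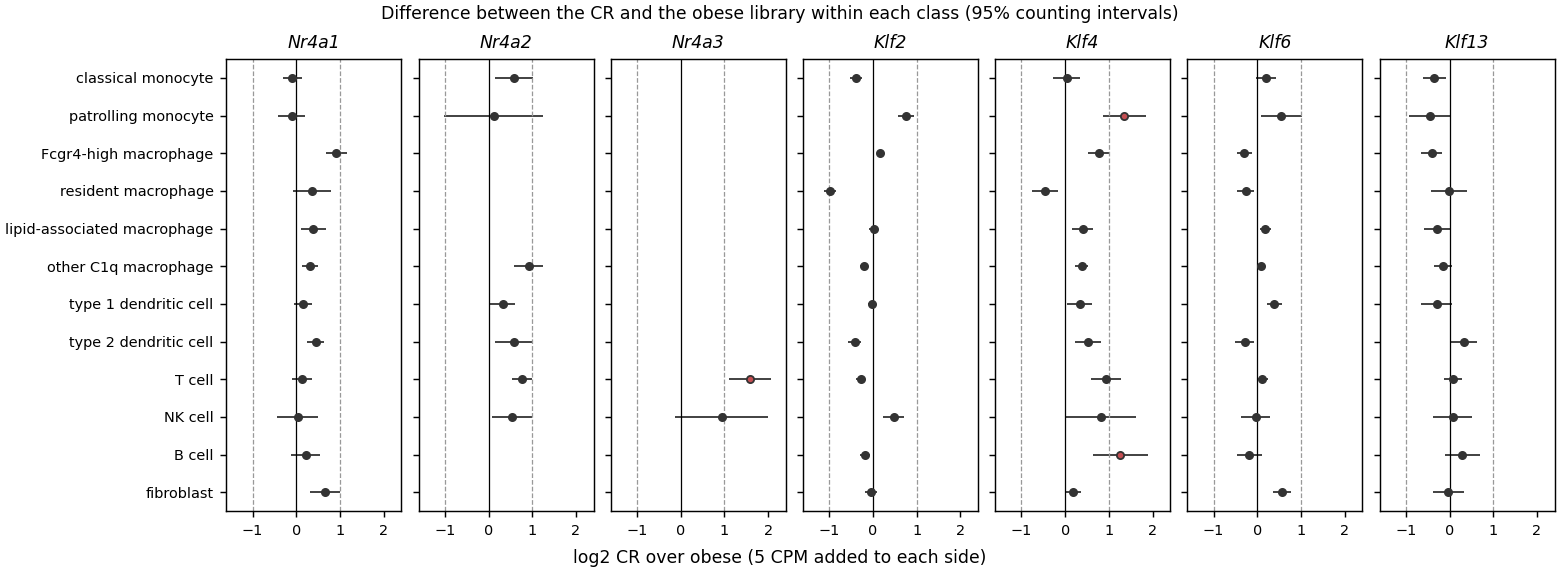
Log2 ratio of CR over obese (x axis) for each member in 12 cell classes (rows), with exact conditional 95% intervals and measured pairs only. Filled red points lie past 2-fold, which holds for Klf4 in patrolling monocytes (1.35), Klf4 in B cells (1.26) and Nr4a3 in T cells (1.59).

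In patrolling monocytes, Klf2 was higher in CR (2871 against 1703 CPM, log2 0.75, 0.57 to 0.93) and Klf4 was higher (492 against 190 CPM), while Nr4a1 was not distinguishable (797 against 860 CPM, -0.11, -0.41 to 0.19). Klf13 gave -0.45 (-0.93 to 0.01). Of the 6 members measured, 1 was past 2-fold, in a class where 6.98% of 2908 genes were. Most UMIs of erythroid cells are haemoglobin, so their CR and obese shares with a Klf4 UMI after thinning (2.78% and 2.75%) do not bound free RNA. In patrolling monocytes thinned to equal depth the shares were 44.3% in CR and 25.7% in obese VAT. Immediate early genes moved in the same class: Egr1 stood at 150 and 28.7 CPM, Fosb was higher by 1.95 on the log2 scale and Jun stood at 706 and 194 CPM, with 4 of 18 measured genes of that list higher, 0 lower and a median of 0.56, against -0.00418 for all genes. Hspa1a, a heat shock gene, was lower in CR, at 21.4 against 168 CPM. Of the heat shock list 6 genes were measured, with 0 higher and 1 lower. Among the other Sp and KLF genes 4 were measured and 1 was higher, Klf10 (1.13), followed by Klf9 (0.87) and Klf3 (0.44). The part of digestion or cell handling in these differences was not tested, and handling and diet cannot be told apart with 1 library a group.

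Fcgr4-high MØs, which numbered 629 in CR and 264 in obese VAT, were higher in CR for Nr4a1 (0.91, 0.68 to 1.15) and Klf4 (192 against 111 CPM, 0.76, 0.52 to 1.02). Klf2 differed less (1279 against 1137 CPM, 0.17, 0.09 to 0.25). Klf6 (-0.30) and Klf13 (-0.41) were lower, with intervals below 0, but Klf6 depended on the gate and ran from -0.67 with looser gates to 0.08 with stricter gates. None of the members passed 2-fold (0 of 5 measured), where 2.53% of all genes did. In the same cells Jun stood at 466 and 191 CPM, Egr1 at 168 and 63.8 CPM and Fosb was higher by 1.38, with 4 of 17 immediate early genes measured higher and 0 lower (median 0.44, against 0.0178 for all genes). Their part was not tested.

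Fcgr4-high cells with few class II transcripts were then taken apart from those with many, at a threshold set after the counts were seen. In the MHCII-low cells (588 CR, 218 obese), Klf4 stood at 199 CPM in CR and 65.0 CPM in obese VAT, a log2 ratio of 1.55 (1.20 to 1.90). It was the only one of 5 measured members past 2-fold, where 2.32% of all genes were. Fcgr4 itself was close in these cells, at 4723 and 4809 CPM, but it is the gene of their gate, so this closeness was set in part by the gate. Jun (467 and 136 CPM), Egr1 (155 and 27.6 CPM) and Fosb (387 and 105 CPM) were also higher, with 5 of 17 immediate early genes past 2-fold. In the MHCII-positive remainder, with under 50 cells in each library (41 CR and 46 obese), Klf4 stood at 124 and 253 CPM, Klf2 at 905 and 1377 CPM and Klf6 at 327 and 527 CPM, whereas Klf6 in the MHCII-low cells stood at 250 and 248 CPM. Among Fcgr4-high cells without C1q UMIs enough for the gate (96 CR, 50 obese), Nr4a1 stood at 374 and 137 CPM, and with C1q (533 and 214) at 217 and 119 CPM.

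In resident MØs the ratios of Klf2 and Klf4 had the opposite sign to those in patrolling monocytes. Klf2 stood at 1012 CPM in 60 CR cells (922 to 1109) and at 1989 CPM in 336 obese cells (1933 to 2047), a log2 ratio of -0.97 (-1.11 to -0.83). Of all 2743 genes measured in the class, 0.62% had a lower ratio. The cell filter removed a larger share of this class in CR, since without it the class held 109 CR and 356 obese cells. Over all settings the Klf2 ratio lay between -1.06 and -0.81. After thinning, 66.7% of CR and 76.8% of obese resident MØs had a Klf2 UMI. Klf4 was lower too (-0.45, -0.76 to -0.15), whereas Nr4a1 was not distinguishable (0.36, -0.08 to 0.79). With 0 of 5 measured members past 2-fold, where 2.08% of genes were, Klf2 fell just short. In the immediate early list Zfp36 was lower (503 against 1022 CPM, -1.02), Socs3 gave -0.85 and Dusp1 -0.74, and 0 of 17 were higher. Klf9 gave -0.98.

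In classical monocytes 0 of 6 members measured passed 2-fold, where 2.4% of genes did. Klf2 (818 against 1072 CPM, -0.39) and Klf13 (-0.35, -0.61 to -0.09) were lower in CR, Nr4a2 was higher (107 against 69.6 CPM, 0.58) and Nr4a1 was not distinguishable (354 against 377 CPM). Egr1 (195 and 74.2 CPM), Jun (608 and 246 CPM) and Ier3 (475 and 198 CPM) were past 2-fold, the 3 of 18 measured genes in that list to be so. Hspa1a was higher as well (344 and 112 CPM).

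In T cells Nr4a3 passed 2-fold. It stood at 52.1 CPM in CR (40.4 to 66.0, 68 UMIs in 407 cells) and 14.0 CPM in obese VAT (9.90 to 19.2, 38 UMIs in 608 cells), a 3.01-fold ratio. Only the CR level reached the 50 CPM minimum, so the pair was measured through the library where Nr4a3 was higher. After thinning, 8.11% of CR and 2.30% of obese T cells had an Nr4a3 UMI. The erythroid shares were 0% and 0.917%, but most erythroid UMIs are haemoglobin, so these shares do not bound free RNA. No single T cell carried more than 3 Nr4a3 UMIs. Nr4a2 (0.77) and Klf4 (0.93, 0.59 to 1.27) were higher, Nr4a1 was not distinguishable (0.13) and Klf2 was lower (-0.28). In T cells 1 of 7 members passed 2-fold, where 2.4% of genes did. Of 8 KLF2-linked lymphocyte genes 7 were measured and 0 passed, the greatest ratios being those of Cd69 (0.59), Ccr7 (-0.55) and Il7r (0.48). Of 10 genes linked to NR4A action 4 were measured and 0 passed, led by Cebpb (0.52) and Pdcd1 (-0.50). Of 15 upstream regulators 3 were measured and 0 passed, led by Crem (0.75), a cyclic AMP response gene. Fosb was higher (1.56) and Atf3 lower (-1.11), at 1 each of 18 immediate early genes, and Dnajb1 was higher (1.09), 1 of 7 heat shock genes measured.

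In NK cells 0 of 7 members passed 2-fold, where 5.41% of genes did. Nr4a3 gave 0.95 (-0.13 to 1.99) and Klf4 0.82 (-0.01 to 1.63), both from few UMIs. Klf2 was higher in NK cells (1070 against 770 CPM, 0.47, 0.22 to 0.72), opposite in sign to T cells, a difference that was not tested. In B cells 1 of 5 members measured passed, where 3.79% of genes did. That was Klf4, with 55 UMIs in 207 CR cells and 27 in 176 obese cells. Over all the settings tried its ratio lay between 0.96 and 1.36, and it fell short of 2-fold without the cell filter (0.96) and with 20 CPM added (0.99). Crem was higher in B cells too (91.5 and 29.2 CPM). In endothelium CR could be set against only 16 obese cells. Klf2 gave 0.60 (0.32 to 0.89) and Klf4 0.39 (-0.12 to 0.95), while Cdh5, a junction gene of endothelium, stood at 906 and 915 CPM. Of the 8 KLF2- and KLF4-linked endothelial genes 8 were measured and 1, Vcam1, passed 2-fold (1 UMI in the obese cells), where 16.5% of all genes did. Of the immediate early genes 18 were measured in endothelium, with 8 higher in CR and 1 lower. Their part in the Klf2 and Klf4 ratios was not tested.

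Within a library, Fcgr4-high over resident MØs gave 2 members past 2-fold in CR (where 24% of genes were) and 2 in obese VAT (where 21.6% were). In CR, Nr4a1 was higher (1.02, 0.63 to 1.43) and Klf6 lower (-1.22, -1.41 to -1.02). In obese VAT, Klf4 (-1.38, -1.63 to -1.13) and Klf6 (-1.19, -1.34 to -1.03) were lower. Klf6 was thus past 2-fold lower in both libraries, although in obese VAT it gave -0.82 with looser gates. Klf2 gave 0.34 in CR and -0.80 in obese VAT, with intervals on opposite sides of 0. Nr4a1 in CR was under 2-fold without the cell filter, with looser gates, with median-of-ratios scaling and with 20 CPM added, and its values over all settings ran from 0.88 to 1.42. Of 10 genes linked to NR4A action 3 were measured in CR and 4 in obese VAT, with 2 higher and 0 lower in each library, beside the 24% and 21.6% of all genes past 2-fold either way. One of them was Pdcd1, at 103 against 2.18 CPM in CR (Fcgr4-high and resident MØs) and 99.4 against 1.70 CPM in obese VAT.

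Patrolling over classical monocytes gave 3 members past 2-fold in CR, where 22.8% of genes were, and 1 in obese VAT, where 14.8% were. Nr4a1 passed in both. Klf2 gave 1.81 (1.63 to 1.98) in CR and 0.66 (0.51 to 0.82) in obese VAT, and Klf4 1.38 (0.98 to 1.77) and 0.06 (-0.39 to 0.48). Nr4a2 gave -0.81 and -0.35, both with intervals that reach 0. Of 8 KLF2-linked genes 4 were measured in the same contrast, with 1 higher and 1 lower in each library. The higher one in CR was Ccr7, a receptor for lymph node homing (171 CPM, against 7.23 CPM in CR classical monocytes). Ccr7 is also a marker of the migratory dendritic cell gate. That gate took cells from the classical but not from the patrolling class, so this difference was shaped by the gates and is not read. Other Sp and KLF genes included Klf3, at 342 against 107 CPM in CR and 251 against 139 CPM in obese VAT.

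**Figure D5:**
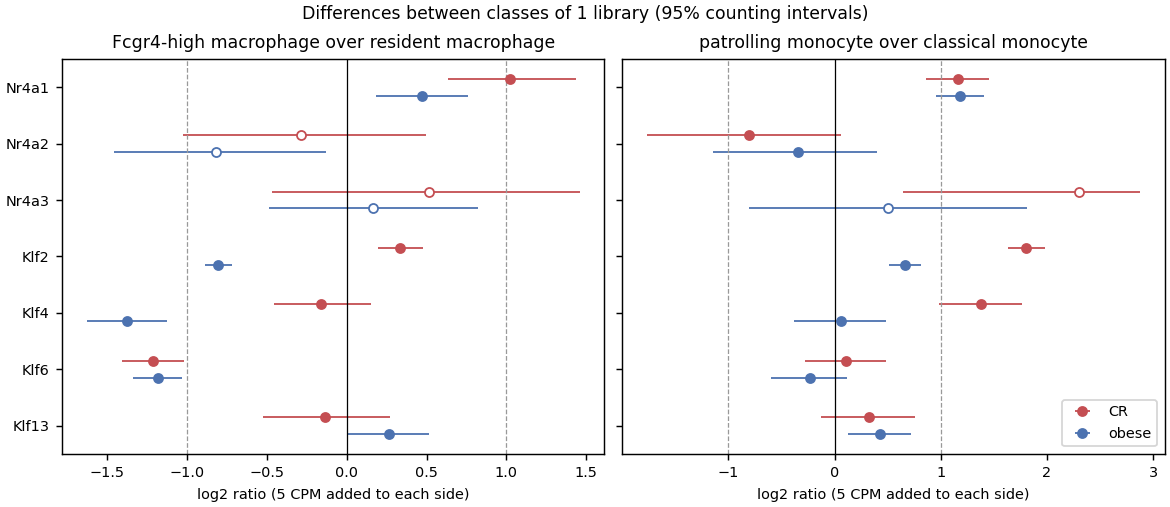
Log2 ratio between cell classes of 1 library (x axis) for each member (rows), CR (red) above obese (blue), with exact conditional 95% intervals and open points for genes not measured. Nr4a1 is past 2-fold in patrolling over classical monocytes in both libraries (1.16 and 1.18), and Klf6 is past 2-fold lower in Fcgr4-high over resident MØs in both (-1.22 and -1.19).

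Among 4641 genes compared over 26 points, each a class in 1 library, the patterns most like that of Nr4a1 were those of Il17ra (Pearson r 0.82), Rap1gap2 (0.80) and Cdkn1b (0.80). For Nr4a2 they were Klrk1 (0.86), Sema4a (0.84) and Ifngr1 (0.83), and for Nr4a3 Pik3r1 (0.79), Rrad (0.75) and Bhlhe40 (0.75). Klf2 was followed by Fam43a (0.75) and Klhl24 (0.70), Klf4 by Laptm4a (0.89), Tnfrsf1a (0.86) and Fndc3b (0.86). Klf6 was followed by Nisch (0.80), Bcl2l1 (0.77) and Aplp2 (0.76), and Klf13 by Foxn3 (0.84), Uba1 (0.84) and Stk10 (0.79). Members were less alike among themselves, from -0.47 for Nr4a1 with Klf6 to 0.60 for Nr4a1 with Klf13. Of the classes, 12 appear in both libraries, and points share depth and free RNA within a library, so these correlations are descriptions only.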

How the data were processed

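UMI counts per gene and cell barcode (unit: counts) were deposited by the authors as 1 sparse matrix per library, made with Cell Ranger 2.2 (version from the study's methods) on mm10 per the labels, which also name Seurat, whose version is not given in the sources used here. The deposited counts are not normalized and hold 1 CR and 1 obese library. Cells were kept with 200 or more genes if the mitochondrial share and the log10 UMIs were at most 3 scaled median absolute deviations above the median. Classes were gated on summed marker UMIs per 10000 UMIs of a cell. Cells that met the gates of 2 lineages were dropped, and no doublet caller was run. UMIs were summed per class and library and given as CPM. Intervals (95%) are exact Poisson for levels, exact binomial for shares and exact conditional for ratios, computed with Python 3.11.15, numpy 2.4.6, scipy 1.17.1 and pandas 2.3.3. Ratios had 5 CPM added to each side. A gene counted as measured with 20 UMIs over both sides and 50 CPM on one, and as different past 2-fold, in classes with at least 50 cells on each side. Cells are not replicates, so no test was run and no p-value is given. The calculations were tested on simulated data.

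The 7 members and all gene lists were chosen with earlier results of these data known. Gate thresholds, the classes set aside (erythroid, mast cells, neutrophils) and the MHCII and C1q splits were set after the counts were seen. Named genes are the members, up to 3 genes of each list with the largest ratios in size, and the 3 genes most correlated with each member, apart from items withheld and not reported here. Other genes named, such as markers, were chosen after their values were seen. Lists covered immediate early genes, heat shock genes, KLF2-linked genes of lymphocytes, KLF2- and KLF4-linked genes of endothelium, genes linked to NR4A action, upstream regulators, other Sp and KLF genes and genes of patrolling monocytes, the last being mostly gate markers and thus not read. Promoter windows are from RefSeq (GRCm38.p6) and matched all 7 members.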

Additional observations from a re-analysis of the deposited data

Results flagged for a closer look

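Ratios of CR over obese with intervals on opposite sides of 0 in different classes were found for 4 members, and the difference between classes was not tested for any of them. Klf2 was 0.75 on the log2 scale in patrolling monocytes and -0.97 in resident MØs. Klf4 was 1.35 in patrolling monocytes and -0.45 in resident MØs. Klf6 was 0.56 in fibroblasts and -0.30 in Fcgr4-high MØs, where its sign turned with stricter gates (0.08) and where the MHCII-low cells held 250 CPM in CR and 248 CPM in obese VAT. Klf13 was 0.33 in cDC2 and -0.41 in Fcgr4-high MØs.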

How the results depend on the processing

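No paired analysis was possible because each group has 1 library. The count of pairs of a member and a class past 2-fold higher in CR, 3 as reported, became 7 with the mean of per-cell CPM, 8 with every cell thinned to 1500 UMIs, 5 with 1 CPM added and 9 with no minimum on UMIs or CPM. The count lower in CR became 1 with median-of-ratios size factors (Klf2 in resident MØs), against 0. Fcgr4-high over resident MØs gave 1 member in CR with looser gates, with median-of-ratios size factors and with 20 CPM added, and 1 in obese VAT with looser gates, against 2 each. Without the cell filter the CR count stayed at 2, but Nr4a2 (lower) was then past 2-fold and Nr4a1 (0.88) was not. Patrolling over classical monocytes in obese VAT gave 2 members with stricter gates and 0 with looser gates, against 1. Stricter gates left under 50 cells for both of these contrasts in CR, so they gave no value there. No called ratio changed sign, while 37 of 808 recomputed ratios of CR over obese and 5 of 252 between classes had another sign than reported. Klf4 in patrolling monocytes ranged from 1.06 to 1.496, Nr4a3 in T cells from 1.08 to 1.82, Klf2 in resident MØs from -1.06 to -0.81 and Nr4a1 in Fcgr4-high MØs from 0.63 to 1.03. Why these values moved was not tested. Depth limits Nr4a3 most, which was under the minimum in 10 of 12 classes, in 6 for too few UMIs and in 4 for the 50 CPM minimum alone.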

Other observations

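Cells outside the classes also carried the members. Kept cells that met no gate (191 CR, 607 obese) held Nr4a1 at 282 CPM in CR and 187 CPM in obese VAT, Nr4a3 at 42.6 and 9.19 CPM and Klf4 at 164 and 106 CPM. Barcodes removed by the cell filters (575 CR, 533 obese) held Klf6 at 1077 and 669 CPM and Klf4 at 327 and 150 CPM. Among small classes, ILC2 had Nr4a1 at 562 CPM in 29 CR cells and 626 CPM in 16 obese cells, and CR pericytes or smooth muscle cells (21 cells, none in the obese library) had 320 CPM.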
